A study of Mus musculus with 10 samples.

Results

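The 10 genes described here are Pink1, Bnip3l, Fundc1, Phb2, Mfn1, Mfn2, Opa1, Dnm1l, Fis1 and Mff, chosen by name as genes of mitophagy and of mitochondrial fusion and fission. They were looked up by symbol in 2 tables of heart RNA, with 15498 genes listed for the embryo and 15989 for the adult. All 10 were listed in the adult table, and 9 of the 10 in the embryonic table, where Dnm1l was not among the genes listed and was not analysed here. Each listed gene passed the filter on low values in its table.

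The mice were labelled as knockouts of Larp7, which encodes an RNA-binding protein of the 7SK ribonucleoprotein, in a conventional and a conditional model on the C57BL/6 strain. Whole hearts at embryonic day E15.5 were from Larp7+/+ (3 samples) or Larp7-/- (3 samples) embryos. Apex tissue of 4-month-old adults was from Larp7f/f controls (CTR, 2 samples) or Myh6Cre;Larp7f/f mice (mCKO, 2 samples), so both adult groups carried floxed alleles. By these genotypes only mCKO carried Cre, so the Cre itself and loss of Larp7 cannot be told apart. The Cre is driven by a cardiomyocyte promoter, while the tissue holds other cells as well. Nothing in the labels states whether the samples of a group are different animals. The p-values therefore speak only of the spread among these samples, which may be technical. In the adult that spread, in p-values and intervals alike, is drawn from genes of similar level and not from the described gene itself.

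Mitophagy is the removal of damaged mitochondria by autophagy. The kinase PINK1 accumulates on depolarised mitochondria and phosphorylates ubiquitin there, which marks them for removal, whereas receptors such as BNIP3L and FUNDC1 on the outer membrane and PHB2 on the inner membrane bind LC3 directly. Mitochondria also fuse, through the mitofusins MFN1 and MFN2 and the inner-membrane GTPase OPA1, and divide, through the dynamin DRP1 (Dnm1l) and its outer-membrane adaptors MFF and FIS1. The heart depends on both processes because cardiomyocytes are packed with mitochondria.

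Pink1 was lower in the mCKO apex (adjusted p = 0.0474, limma), a result close to the threshold that was lost in 6 alternative settings. The other 9 genes did not pass the test there, where 3.24% of all tested genes did. None of the 9 listed genes passed it at E15.5, where 0.573% of all tested genes did. The values are per-million values that the authors rounded to whole numbers, and a log2 change is the knockout minus control difference of log2(value + 1). A gene was called when its adjusted p (limma with Benjamini-Hochberg adjustment over all genes of the table) was under 0.05.

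The promoter of Pink1 is shown because Pink1 was the called gene. It is the 250 bases before the RefSeq start on GRCm38.p6, chr4:138326297-138326546 on the minus strand, printed 5′ to 3′, with capitals reserved for motif matches, of which this window has none.
Pink1: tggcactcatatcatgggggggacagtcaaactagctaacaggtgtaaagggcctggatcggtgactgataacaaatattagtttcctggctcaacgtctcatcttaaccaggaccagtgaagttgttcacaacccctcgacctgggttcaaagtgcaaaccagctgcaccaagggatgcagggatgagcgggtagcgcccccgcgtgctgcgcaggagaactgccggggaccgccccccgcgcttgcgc
RefSeq gave at least 1 promoter for 9 of the 10 genes, Bnip3l being unmatched. Searched on both strands were GTAAACA (the FOXO core, in 3.16% of all 32817 promoters of this length), AAGGTCA (an estrogen-related receptor element, 4.08%), CACGTG (an E-box bound by TFEB and others, 6.02%), TGACGTCA (the CREB site, 1.55%), TATAAA (the TATA box, 12.4%) and the core palindrome of the NRF1 site (0.777%). None of these 6 runs of letters was in the Pink1 window. Among the other genes, the NRF1 core in the Opa1 promoter was the single match. The Pink1 window was 57.2% G and C with 13 CpG sites, against medians of 52.4% and 6 over all promoters.

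Larp7 itself was looked at as a check of the labels. It was 96, 88 and 103 in the Larp7+/+ hearts and 45, 54 and 40 in the Larp7-/- hearts, which on the log2 scale was -1.04 (SE 0.17, adjusted p = 0.00163, limma). It was called in 12 of 17 alternative settings. The knockout mean was 0.484 of the wild-type mean, so Larp7 RNA was lower but not absent. By itself it does not show that both alleles were lost. In the adult it was 26 and 28 in CTR and 26 and 24 in mCKO (log2 -0.11, SE 0.17, adjusted p = 0.934, limma), so Larp7 RNA does not check the adult genotypes. Control and knockout samples that carry one number mirror each other, their values summing to a constant (within 2 in 8328 of 8366 genes at E15.5 and in 8642 of 8658 in the adult, at a mean of at least 10). The SDs of both groups of a gene are therefore nearly equal and not independent, and the fit carries the replicate number as a block.

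Fewer cells of a type and less RNA per cell cannot be told apart in such tissue samples. At E15.5 the 6 of 11 cardiomyocyte markers that were listed (Myh6, Myh7, Ryr2, Pln and Mb were not; none of the 6 was at 0 in all samples) summed to 17958 to 21095 in the wild type and 13419 to 16555 in the knockout, a difference of -24.3%. Summed macrophage markers (4 of 7 listed) were 41 to 54 and 56 to 69, 39.1% higher in the knockout without overlap. Fibroblast markers (5 of 8, 1 called higher) were 3683 to 4601 and 4561 to 5476, and epicardial markers (3 of 6) 143 to 210 and 170 to 237, both overlapping. Stratified epithelium markers (6 of 7) were 62 to 104 and 65 to 233. Smooth muscle and pericyte markers (3 of 7, 1 called lower) were 171 to 195 and 146 to 169, without overlap, and endothelial markers (7 of 7) 1082 to 1153 and 1123 to 1193. The part of these shifts in the embryonic values below was not tested.

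Among the mitophagy genes at E15.5, Pink1 (chromosome 4, 138313409 to 138326307, minus strand, mm10) had 74, 132 and 120 in the Larp7+/+ hearts and 181, 124 and 136 in the Larp7-/- hearts. The groups overlapped, with number 1 the lowest wild-type and the highest knockout sample. The means were 108.7 ± 30.6 and 147 ± 30.1 (SD, n = 3), a log2 change of 0.46 (SE 0.27, 95% interval -0.21 to 1.12), which did not pass the test (adjusted p = 0.527, limma). The change was 0.045 without either number 1 sample, and it was 0.73 and passed the test without number 2 of the wild type or of the knockout (adjusted p = 0.00266 and 0.00263, limma). With the block, a sample without its partner adds nothing to the change, so both of those fits compare numbers 1 and 3 only. Their p-values rest on spread pooled over genes and say nothing about stability. The embryonic Pink1 value thus rested on single replicate numbers.

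Bnip3l (chromosome 14, 66985239 to 67008877, minus strand), the receptor also known as NIX, which clears mitochondria from maturing red cells, was 308, 250 and 273 in the wild type and 297, 355 and 332 in the knockout. Knockout samples 2 and 3 lay above every wild-type sample, and number 1 did not. The log2 change was 0.24 (SE 0.17, 95% interval -0.11 to 0.59, adjusted p = 0.541, limma). Summed erythroid markers (4 of 8 listed, none at 0 in all samples) were 67 to 174 in the wild type and 127 to 237 in the knockout, and their part in the Bnip3l values was not tested. Fundc1 (chromosome X, 17556564 to 17572325, minus strand), a hypoxia-responsive LC3 receptor, was 76, 61 and 74 against 69, 83 and 71, fully interleaved (log2 0.08, 95% interval -0.26 to 0.42). Phb2 (chromosome 6, 124712336 to 124716950, plus strand), a prohibitin of the inner membrane, was 257, 262 and 265 against 240, 236 and 232. Every knockout value of Phb2 was below every wild-type value, a difference of 9.69% of the wild-type mean (log2 -0.15, 95% interval -0.48 to 0.19, adjusted p = 0.738, limma).

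Of the fusion genes at E15.5, Mfn1 (chromosome 3, 32529465 to 32579239, plus strand) was 114, 133 and 142 in the wild type and 178, 159 and 151 in the knockout, without overlap. Its mean went from 129.7 ± 14.3 to 162.7 ± 13.9 (SD, n = 3), a log2 change of 0.33 (SE 0.17, 95% interval -0.01 to 0.67) that did not pass the test (unadjusted p = 0.0571, adjusted p = 0.376, limma). Mfn2 (chromosome 4, 147873599 to 147904704, minus strand), the other mitofusin, which also tethers mitochondria to the endoplasmic reticulum, was 361, 338 and 413 against 329, 352 and 276. Those groups overlapped through number 2 (log2 -0.22, SE 0.17, 95% interval -0.57 to 0.14). The ratio of Mfn2 to Mfn1 within a sample was 3.17, 2.54 and 2.91 in the wild type and 1.85, 2.21 and 1.83 in the knockout, without overlap. This ratio was looked at with the values of both genes known and was not tested. Opa1 (chromosome 16, 29579334 to 29654884, plus strand) was 144, 136 and 138 against 134, 142 and 139, with interleaved groups (log2 -0.01, 95% interval -0.34 to 0.32).

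Both fission adaptors had lower values in the embryonic knockout. Fis1 (chromosome 5, 136953275 to 136966234, plus strand) was 94, 98 and 99 in the wild type and 83, 79 and 78 in the knockout (log2 -0.28, SE 0.16, 95% interval -0.60 to 0.05, adjusted p = 0.453, limma). Mff (chromosome 1, 82724890 to 82752394, plus strand) was 165, 165 and 166 against 144, 145 and 143 (log2 -0.20, SE 0.16, 95% interval -0.53 to 0.13, adjusted p = 0.616, limma). Neither gene's groups overlapped, and the spread within a group was small, 2.65 (SD, n = 3) in both groups for Fis1 and 0.58 and 1 for Mff. On the log2 scale, the residual SD of the fit was 0.061 for Fis1 and 0.010 for Mff. The SE of 0.16 is larger than these because limma draws the spread toward that of genes of similar level. With neither replicate block nor rounding variance Fis1 and Mff passed the test (adjusted p = 0.0281 for each, limma), in a fit that counts mirrored deviations as independent. Their ratio, Mff to Fis1, was 1.76, 1.68 and 1.68 in the wild type and 1.73, 1.84 and 1.83 in the knockout, and overlapped.

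At E15.5, then, 0 of the 9 genes were called in limma (0 at an unadjusted p under 0.05), where 0.573% of 13609 tested genes were called, 0.478% higher and 0.0955% lower. Of all tested genes, 1891 were at an unadjusted p under 0.05 (limma). With median-of-ratios scaling the share of higher calls among all calls was 66.7%, against 83.3% here. The authors' deposited table gives 0 of these 9 genes at an unadjusted p under 0.05 and 0 of the 8 that have an adjusted p there. How many of all genes pass there was not worked out. Groups did not overlap in 1 gene that was higher (Mfn1) and 3 that were lower (Phb2, Fis1 and Mff), where 28.1% of all tested genes did not overlap, 19.3% higher and 8.75% lower. The median log2 change of the 9 genes was -0.01, against 0.11 over all tested genes.

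**Figure D1:**
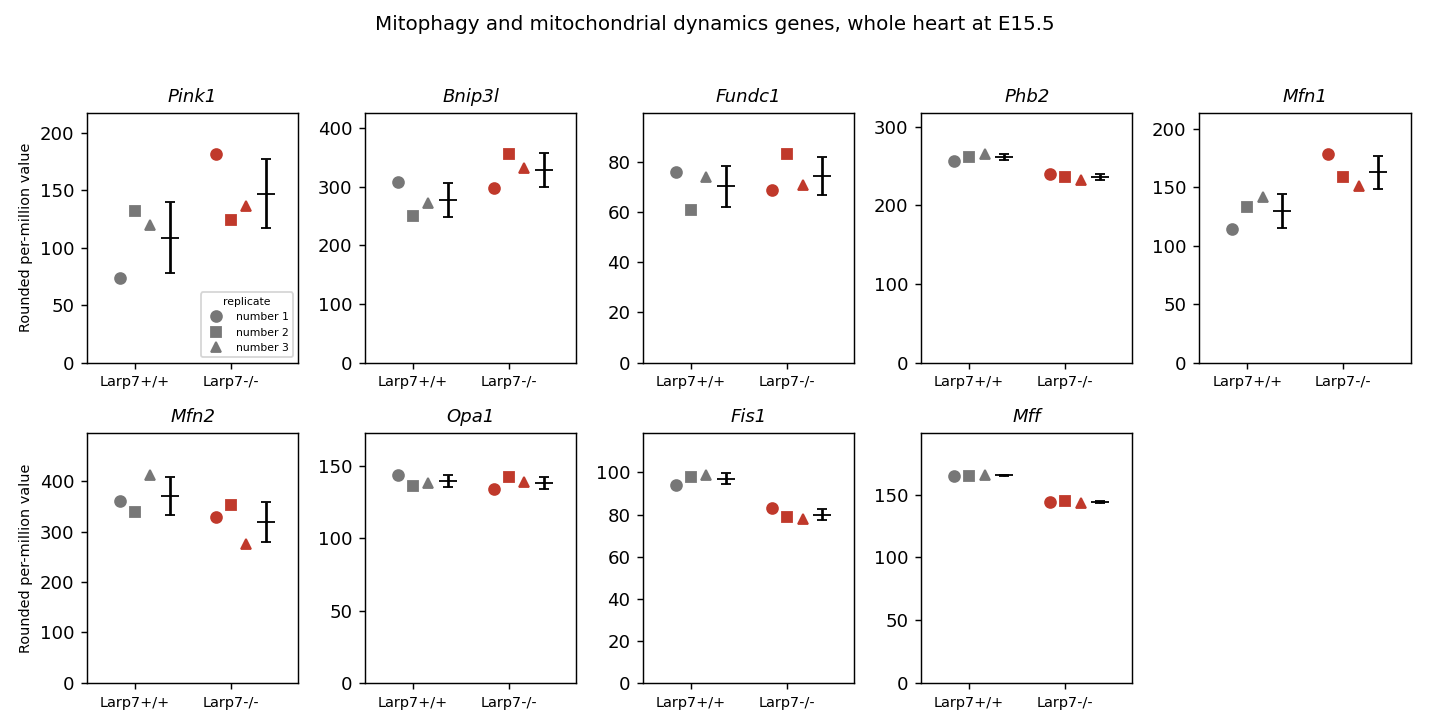
Rounded per-million values of the 9 genes listed at E15.5, each panel with 3 Larp7+/+ hearts (grey) and 3 Larp7-/- hearts (red); marker shapes give the replicate number, and the black bar is the mean with its SD (n = 3). Phb2, Fis1 and Mff lie lower and Mfn1 higher in the knockout without overlap, and Pink1 spans 74 to 132 and 124 to 181.

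In the adult apex Pink1 was 664 and 641 in CTR and 468 and 490 in mCKO. Both knockout values lay well below both control values. The mean fell from 652.5 ± 16.3 to 479 ± 15.6 (SD, n = 2), 26.6% of the control mean, with a log2 change of -0.45 (SE 0.14, 95% interval -0.72 to -0.17, adjusted p = 0.0474, limma). Of 14835 tested genes, 717 had a more negative log2 change, or 4.83%. The authors' deposited table puts Pink1 at -0.51 on the log2 scale (unadjusted p = 0.00106), the 1 of the 10 genes under 0.05 there. It gives no adjusted p for these genes and comes from the same samples. How many of all genes are under 0.05 there was not worked out.

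The Pink1 call in the adult was close to the threshold and rested on spread pooled over genes. With 1 residual degree of freedom a gene, its SE is that of genes of similar level, and it was not called when the prior was limited to 4 degrees of freedom (adjusted p = 0.857, limma) or with its own spread alone (0.788), fits that called 0 genes of any kind (772 and 417 at an unadjusted p under 0.05). It also missed the threshold with no filter on low values (0.0519), with a pseudocount of 5 (0.0558), without rounding variance (0.382) and with a prior without trend and robust options (0.836). Without each of the 4 samples in turn the log2 change was -0.48 to -0.41. Those fits leave 1 group with a single sample, assumed to vary like the other group, and cannot carry the block, so their adjusted p (0.00196 to 0.0211, limma) says nothing about the stability of the call.

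Markers of the cell types in the apex are given beside Pink1. The summed cardiomyocyte markers (11 of 11 listed, none at 0 in all samples) were 70434 to 70862 in CTR and 66487 to 66917 in mCKO, a difference of -5.59%, against -26.6% for Pink1. Of these 11 genes, 1 was called higher and 0 lower (limma), and their median log2 change was -0.08. Summed fibroblast markers (8 of 8, none at 0 throughout) were 1185 to 1500 and 2270 to 2587, 1.81 times as high in the knockout. Macrophage markers (7 of 7, none at 0 throughout) were 449 to 458 and 525 to 537. Summed endothelial markers (7 of 7, none at 0 throughout), at 1338 to 1491 and 1423 to 1578, overlapped, and the median log2 change of these genes was -0.08. Epicardial markers (6 of 6, 1 called higher) were 24 to 60 and 73 to 108, 2.15 times as high in the knockout, and erythroid markers (4 of 8) 21 to 55 and 49 to 124, 2.28 times as high with overlapping groups. Smooth muscle and pericyte markers (7 of 7) were 824 to 837 and 793 to 808. Stratified epithelium markers (3 of 7) were at 6 or less. The part of these shifts in the Pink1 value was not tested.

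The LC3 receptors did not pass the test in the adult. Bnip3l was 50 and 42 in CTR and 48 and 54 in mCKO, overlapping (log2 0.15, 95% interval -0.15 to 0.45, adjusted p = 0.859, limma). Fundc1 was 33 and 30 against 28 and 30 (log2 -0.11, 95% interval -0.44 to 0.21), with the number 2 samples equal. Phb2 was 168 and 163 against 174 and 180, higher in both knockout samples (log2 0.10, 95% interval -0.19 to 0.38, adjusted p = 0.919, limma).

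Mfn2 had the next most negative change of the 10 genes in the adult. It was 864 and 876 in CTR and 782 and 772 in mCKO, without overlap, and the difference of 10.7% of the control mean did not pass the test (log2 -0.16, SE 0.14, 95% interval -0.43 to 0.11, adjusted p = 0.764, limma). It was called with neither replicate block nor rounding variance (adjusted p = 0.0365, limma). Mfn1 was 308 and 355 against 341 and 294, where number 1 was higher and number 2 lower in the knockout (log2 -0.06, 95% interval -0.34 to 0.22). The ratio of Mfn2 to Mfn1 was 2.81 and 2.47 in CTR and 2.29 and 2.63 in mCKO, and overlapped. Opa1 was 168 and 176 against 166 and 158, without overlap (log2 -0.09, 95% interval -0.37 to 0.20).

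The fission genes differed by 4.76% of the control mean or less in the adult. Dnm1l (chromosome 16, 16312230 to 16358959, minus strand), the GTPase that constricts the organelle, was 120 and 132 in CTR and 138 and 126 in mCKO (log2 0.07, 95% interval -0.22 to 0.35). Fis1 was 93 and 92 against 88 and 89, a difference of 4.32% of the control mean without overlap (log2 -0.06, 95% interval -0.35 to 0.22). Mff was 118 and 119 against 119 and 119 (log2 0.01, 95% interval -0.28 to 0.29), and its direction turned with median-of-ratios scaling (log2 -0.06). These intervals leave room for fold changes of 0.82 to 1.23 in Mff and 0.86 to 1.28 in Dnm1l.

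In all, 1 of 10 genes was called in the adult, where 3.24% of 14835 tested genes were called, 2.3% higher and 0.944% lower. With median-of-ratios scaling the share of higher calls among all calls was 57.8%, against 70.9% here, and Pink1 was called there as well (log2 -0.51, adjusted p = 0.0109, limma). Groups did not overlap in 4 genes that were lower (Pink1, Mfn2, Opa1 and Fis1) and 1 that was higher (Phb2), against 42.1% of all tested genes, 12.8% lower and 29.3% higher. The median log2 change of the 10 genes was -0.06, against 0.08 over all tested genes.

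**Figure D2:**
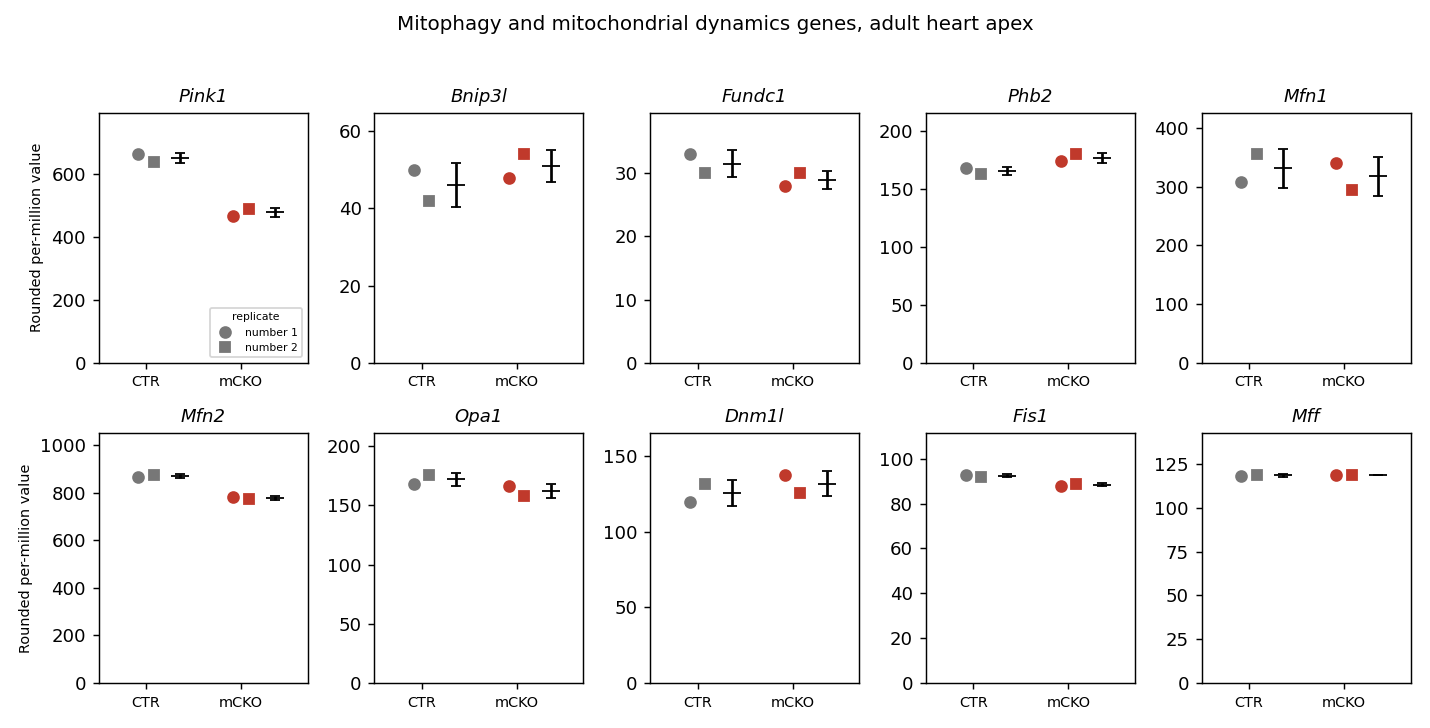
Rounded per-million values of the 10 genes in the adult apex, each panel with 2 CTR (grey) and 2 mCKO samples (red); marker shapes give the replicate number, and the black bar is the mean with its SD (n = 2). Pink1 lies at 641 to 664 in CTR and 468 to 490 in mCKO, while the other genes differ by 10.9% of the control mean or less.

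**Figure D3:**
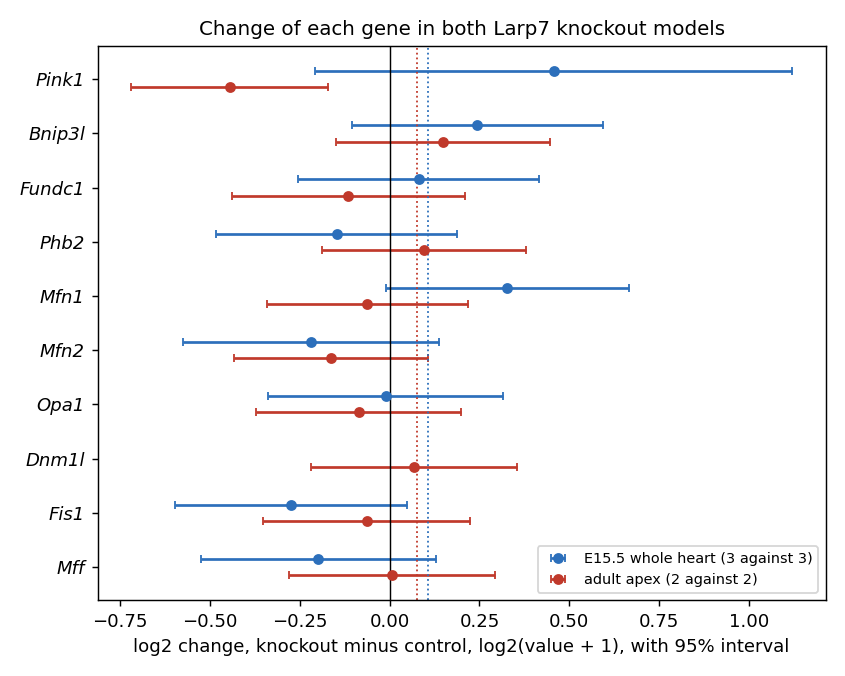
Log2 change of each gene (knockout minus control, on log2(value + 1)) with its 95% interval from limma, at E15.5 (blue) and in the adult (red); dotted lines give the median over all tested genes of each table. The interval of Pink1 in the adult, -0.72 to -0.17, is the only interval of the 19 that does not include 0.

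The models were processed into separate tables, so no test was run between them, and Pink1, with log2 changes of 0.46 in the embryo and -0.45 in the adult, is not shown to respond differently in them. Across all 4 groups Pink1 was lowest in the Larp7+/+ embryos (74 to 132) and next in the Larp7-/- embryos (124 to 181), groups that overlapped, then in mCKO (468 to 490) and highest in CTR (641 to 664). The control level of Pink1 was 6.00 times as high in the adult apex as in the embryonic heart. Bnip3l went the other way, with 250 to 308 in embryonic and 42 to 50 in adult controls, 6.02 times as high in the embryo. Mfn1 and Mfn2 were 2.56 and 2.35 times as high in adult controls. Fundc1, Phb2 and Mff were 2.23, 1.58 and 1.40 times as high in embryonic controls. Opa1 was 1.23 times as high in adult controls, and Fis1, at 94 to 99 and 92 to 93, was the nearest to equal. Age, tissue part and table cannot be told apart in these ratios, and how many of all genes differ as much was not worked out.

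Other genes of the pathways were taken from 4 lists, to be read against all tested genes. Of those, 60.4% were positive and 33.1% negative at E15.5 and 57.9% and 28.6% in the adult, with 0.573% and 3.24% called. An unadjusted p under 0.05 (limma, either direction) was reached by 1891 of 13609 tested genes at E15.5 and by 1817 of 14835 in the adult. The unadjusted counts of the lists are to be read against those. The mitophagy and quality control list had 20 of 28 genes tested in the embryo and 27 in the adult. In either, 0 were called (limma; 3 higher at an unadjusted p under 0.05 at E15.5, 2 lower in the adult). The median of its log2 changes was 0.14 in the embryo and 0.04 in the adult, against 0.11 and 0.08 over all tested genes. Bnip3, the hypoxia-induced relative of Bnip3l, was 226, 166 and 176 in the wild-type embryos and 237, 298 and 288 in the knockout, without overlap (log2 0.54, SE 0.17, adjusted p = 0.152, limma). In the adult Bnip3 was 97 and 77 against 58 and 77 (log2 -0.37, SE 0.15, adjusted p = 0.202, limma). Tomm7, a small subunit of the outer-membrane import pore that stabilises PINK1, was 22, 24 and 33 against 22, 20 and 12 at E15.5 (log2 -0.55, adjusted p = 0.364, limma). Usp30, a deubiquitinase of the outer membrane, was 9 and 10 against 13 and 11 in the adult (log2 0.31, adjusted p = 0.721, limma).

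The list of further fission, fusion and transport genes had lower knockout values in most members, with 10 of 13 negative at E15.5 (76.9%, median -0.16, against 33.1% and 0.11 over all tested genes) and 12 of 18 in the adult (66.7%, median -0.10, against 28.6% and 0.08), and 0 called in either (limma; 2 lower at an unadjusted p under 0.05 at E15.5, 2 higher and 2 lower in the adult). At E15.5 Fam73b, which encodes the outer-membrane fusion factor MIGA2, was 76, 70 and 81 against 54, 61 and 51 (log2 -0.45, SE 0.16, adjusted p = 0.204, limma). Mief2, a DRP1 receptor, was 24, 26 and 28 against 21, 19 and 18 (log2 -0.41, adjusted p = 0.339, limma). In the adult Mtfp1, an inner-membrane fission protein, was 154 and 162 against 130 and 122 (log2 -0.32, SE 0.15, adjusted p = 0.28, limma). Rhot2, which encodes the transport GTPase MIRO2, was 90 and 92 against 74 and 73 (log2 -0.30, adjusted p = 0.35, limma). These 4 genes, named as the largest changes of the list, had groups that did not overlap. Over the list this held for 5 of 13 genes in the embryo and for 13 of 18 in the adult, where 28.1% and 42.1% of all tested genes did not overlap.

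Core autophagy genes had 15 of 22 positive changes at E15.5 (68.2%, median 0.16) and 16 of 25 in the adult (64.0%, median 0.03), near the 60.4% and 57.9% of all tested genes, with 0 called in either (limma; 5 higher and 1 lower at an unadjusted p under 0.05 at E15.5, 2 higher in the adult). Gabarapl1, an LC3 relative, was 68, 67 and 50 against 79, 80 and 96 at E15.5 (log2 0.46, SE 0.17, adjusted p = 0.208, limma). Atg3, the enzyme that conjugates LC3 to lipid, was 11, 50 and 44 against 72, 33 and 38 at E15.5, with opposite directions between numbers (log2 0.60, SE 0.96). In the adult Atg3 was 24 and 24 against 32 and 32 (log2 0.40, SE 0.17, adjusted p = 0.233, limma), and Atg13, a subunit of the ULK1 complex, was 60 and 64 against 80 and 76 (log2 0.33, adjusted p = 0.286, limma).

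A list of genes used as markers of mitochondrial content stands beside these. Of 9 tested at E15.5, 8 were negative (88.9%, median -0.17, against 33.1% and 0.11 over all tested genes), and of 13 in the adult, 8 (61.5%, median -0.16, against 28.6% and 0.08), with 0 called in either (limma; 2 lower at an unadjusted p under 0.05 at E15.5 and 1 lower in the adult). Slc25a4, the heart ADP/ATP carrier, was 1388, 1481 and 1691 against 1213, 1121 and 911 at E15.5 (log2 -0.50, SE 0.19, adjusted p = 0.234, limma), and Cox4i1 was 586, 656 and 630 against 520, 449 and 474 (log2 -0.38, adjusted p = 0.324, limma). In the adult Sdha, a subunit of complex II, was 1490 and 1580 against 1216 and 1124 (log2 -0.39, SE 0.13, adjusted p = 0.0845, limma), and Uqcrc1 was 1060 and 1090 against 914 and 884 (log2 -0.26, adjusted p = 0.446, limma). The log2 change of Pink1 in the adult (-0.45, SE 0.14) was more negative than that of each of the 13 content markers. Pink1 was set beside them as the called gene, so this order is partly built in by that choice. The difference was not tested.

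**Figure D4:**
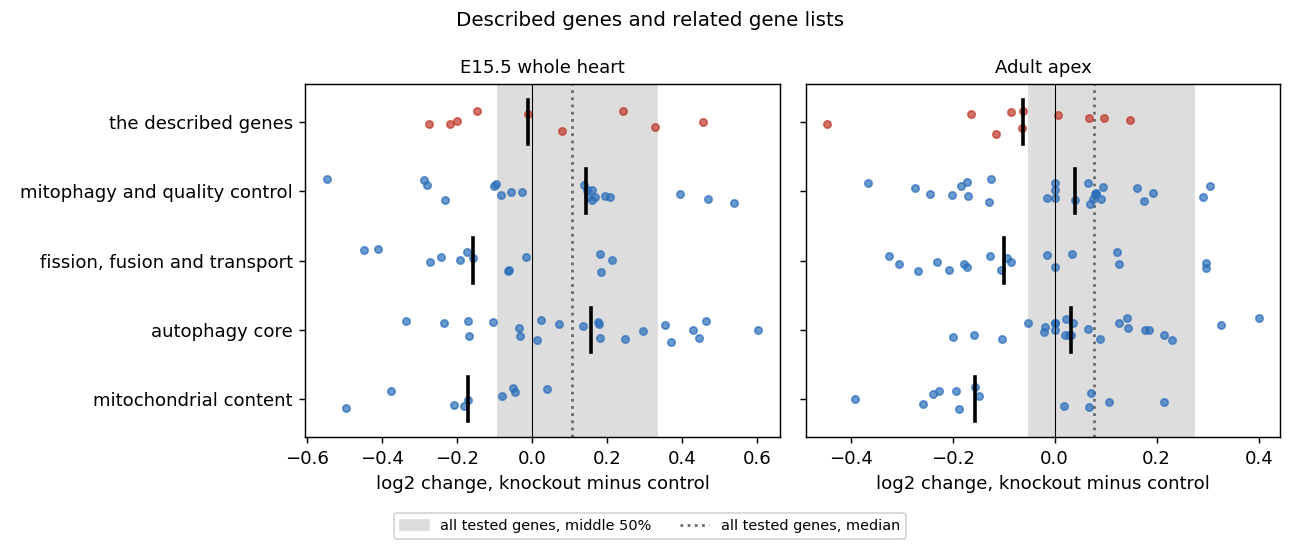
Log2 changes of the described genes (red) and of the 4 related lists (blue), each point a gene and each black bar a list's median, at E15.5 (left) and in the adult (right); the grey band holds the middle 50% of all tested genes and the dotted line is their median. The medians of the fission and content lists lie below 0 in both models, at -0.16 and -0.17 at E15.5 and at -0.10 and -0.16 in the adult.

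The pattern of Pink1 over the 10 samples, centred within each table, was compared with that of 5641 genes with a mean of at least 10 in both. The most alike were Smap2 (Pearson r = 0.96), Irf2bp1 (0.95), Dap3 (0.93), Rfng (0.93) and Plekhf2 (0.92), given as a description, since values of a replicate number mirror each other and a table shares its processing. Smap2, for example, was 23, 51 and 42 against 79, 51 and 59 at E15.5 and 69 and 71 against 59 and 57 in the adult. Among the described genes Mfn1 was the most alike, at r = 0.77, and Mff the least, at -0.55. None of the 5 most alike genes was called in either model (limma, adjusted p between 0.476 and 0.971).

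Reads of some of these genes can be shared with others. Exons of Pink1 overlap the annotated Mir7019 and Gm27646 on the same strand, those of Phb2 overlap Gm23547 on the same strand and Gm15884 on the opposite strand, those of Mff overlap C430014B12Rik and those of Dnm1l overlap Gm49521, both on the opposite strand. At E15.5 the partners of the genes listed there were at 2 or less (Mir7019 and Gm27646), 4 or less (Gm23547), 16 to 24 (Gm15884) and 3 or less (C430014B12Rik). In the adult these partners were not among the genes listed. The sources used here do not say whether counting used strand, and values of Phb2, Mff and Dnm1l are uncertain to that extent. Bnip3l has an annotated processed pseudogene at another locus, with which it could share reads.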

How the data were processed

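Total RNA from whole embryonic hearts or adult apex was sequenced, and per the submitters' processing notes reads went through HISAT2 and HTSeq on mm10. The authors deposited whole-number scores on a per-million scale, with TPM or CPM not stated: each sample sums to 998498 to 1001508, so depth is unknown and no counting interval can be given. The deposited tables also hold the authors' log2 fold changes and p-values, per the file headers. Log2(value + 1) was fitted in limma 3.58.1 (R 4.3.3) within each table, over genes that reach 1 in as many samples as a group holds (13609 and 14835), with the replicate number as a block. A rounding variance of 0.0833 on the scale of the values was added to each gene's variance, and eBayes used trend and robust options. The block follows from the fixed totals and not from the labels: deviations of same-numbered samples correlate at -0.82 to -0.80 at E15.5 and at -0.81 in the adult. Positions are from GENCODE M21 and promoters from RefSeq. The genes, the lists and the tests were chosen with earlier results of these data known. Named from each list were up to 6 called genes or, with none called, the 2 largest changes at a mean of at least 10, and the 5 genes most like Pink1. Alternatives covered the block, rounding variance, filter, pseudocount, scaling, prior and each replicate.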

Additional observations from a re-analysis of the deposited data

Results flagged for a closer look

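Phb2, the inner-membrane prohibitin, was lower in the knockout sample of all 3 replicate numbers at E15.5 (240, 236 and 232 against 257, 262 and 265) and higher in both in the adult (174 and 180 against 168 and 163), so its direction was opposite in the models. On the log2 scale Phb2 had -0.15 in the embryo and 0.10 in the adult, a difference of 0.243. This difference was not tested, since the tables were made separately, and neither change passed the test within its model. The adult change of Phb2 lay near the median of all tested genes (0.08), of which 52.7% had a lower change. With median-of-ratios scaling it was 0.03. Log2 changes of opposite sign were not particular to Phb2. Pink1 (0.46 at E15.5 and -0.45 in the adult), Mfn1 (0.33 and -0.06), Fundc1 (0.08 and -0.11) and Mff (-0.20 and 0.01) had them too. Bnip3l, Mfn2, Opa1 and Fis1 kept their sign.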

How the results depend on the processing

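Of the log2 changes of the described genes under alternative settings, 145 of 153 in the embryo and 138 of 150 in the adult kept their direction and their side of the threshold, and 1 more in the adult (Mff without number 1 of CTR) was 0. Settings that change only the block, rounding variance, filter or prior leave the log2 change as it is, so its direction could not turn there. At E15.5, leaving out either sample of a number gives the same log2 change, tested on spread pooled over genes. These totals therefore do not measure robustness. Adult fits without a replicate also have no replicate block and leave a group with 1 sample, assumed to vary like the other group, so their counts reflect both choices and say nothing about stability. At E15.5 the described genes called went from 0 to 2 with no replicate block or rounding variance (Fis1 and Mff), and ranged from 0 to 1 without each replicate in turn (Pink1 without either number 2 sample). In the adult they went from 1 to 0 without rounding variance, with no filter, with a pseudocount of 5, without trend and robust options, with no moderation and with the prior limited to 4, to 2 with no replicate block or rounding variance, and were 1 without each replicate and the block. Genes of the 4 lists called went from 0 at E15.5 to 2 with no replicate block, 5 with no replicate block or rounding variance and 1 with no filter, and to 0 to 5 without each replicate. In the adult they went from 0 to 2 with no replicate block, 3 without rounding variance, 10 with no replicate block or rounding variance, 1 at a mean of at least 10, 1 with median-of-ratios scaling, and 1 to 4 without each replicate and the block. The cause was not tested.

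Directions that turned were those of small changes. Without each replicate in turn, the log2 change ranged from -0.10 to 0.19 in Fundc1 and from -0.046 to 0.036 in Opa1 at E15.5, and from -0.17 to 0.044 in Mfn1 and from -0.0015 to 0.13 in Dnm1l in the adult. Mff in the adult had -0.056 with median-of-ratios scaling.

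Over all genes, 65 higher and 13 lower were called at E15.5 (limma). There were 424 and 173 with no replicate block, 701 and 339 with neither block nor rounding variance, 476 and 121 with no filter, 37 and 7 with a pseudocount of 0.5, 197 and 37 with a pseudocount of 5, and 26 and 13 with median-of-ratios scaling. There were 0 and 0 with the block and no rounding variance, at a mean of at least 10, without trend and robust options, with no moderation and with the prior limited to 4 (limma, 1422, 1099, 1126, 786 and 1062 at an unadjusted p under 0.05). Leaving out each replicate gave 171 to 419 higher and 40 to 87 lower. In the adult, 341 higher and 140 lower were called. There were 272 and 164 with no replicate block, 833 and 297 without rounding variance, 1133 and 489 with neither block nor rounding variance, 282 and 206 with median-of-ratios scaling, 0 and 0 with no moderation or the prior limited to 4 (limma, 417 and 772 at an unadjusted p under 0.05), and 381 to 961 higher and 222 to 301 lower without each replicate and the block. Rounding to whole numbers and 2 or 3 samples a group limit the precision.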
